A study of Arabidopsis thaliana with 4 samples.

Results

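The 5 probe sets described here read transcripts of the enzymes that turn nitrate into amino nitrogen in Arabidopsis thaliana leaves. They were chosen by the function of their genes, by a rule that uses no measured value, as 259681_at for NIA1 (AT1G77760), 261979_at for NIA2 (AT1G37130), 265475_at for NIR1 (AT2G15620), 249710_at for GLN2 (AT5G35630) and 245701_at for GLU1 (AT5G04140), and are 5 of the 22810 probe sets on the Affymetrix ATH1 array. A probe set is a group of short oligonucleotides that together read 1 transcript. The pairing of probe sets with loci came with the choice of members, and no table used here could check it. All 5 loci were found in the RefSeq gene table under these symbols, except that GLN2 is listed as GS2 with GLN2 as a synonym. None of the 5 identifiers carries the suffix _s_at or _x_at, which marks probe sets that can bind several transcripts.

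The tested plants were line AS12, Col-0 plants that carry an AOX1a (At3g22370) antisense transgene under the 35S CaMV promoter, a constitutive viral promoter, and they were set against wild-type plants. AOX1a encodes an alternative oxidase of the inner mitochondrial membrane, which bypasses the cytochrome pathway by reducing oxygen with electrons from ubiquinol. The labels give both genotypes the same conditions: a soil-less mix to which no fertilizer was added, 23 °C, and 14 h of light a day at 350 µmol photons m-2 s-1. Leaves were taken shortly before noon on day 21 from sowing. There were 2 arrays per genotype, and the RNA of each was pooled from several plants: 9 in antisense 1, 8 in antisense 2, 7 in wild type 1 and 9 in wild type 2. The antisense genotype is thus represented by 1 transformed line.

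Nitrate taken up by a plant is first reduced to nitrite by nitrate reductase in the cytosol and then to ammonium by nitrite reductase in the plastid. Glutamine synthetase joins ammonium to glutamate, and glutamate synthase passes the amide nitrogen on to 2-oxoglutarate, so that the pair form a cycle that feeds amino acid synthesis. In leaves the plastid forms of these last enzymes also take back the ammonium released in photorespiration. Transcripts of nitrate reductase and nitrite reductase are known to be induced by nitrate, light and sugars and to vary over the day.

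Of the 5 transcripts, NIA1 varied most. It was 1.65-fold higher in the antisense line (95% interval 1.03 to 2.64, n = 2 arrays per genotype), while NIA2, NIR1, GLN2 and GLU1 each differed between the genotypes by less than 1.12-fold in either direction. None of the 5 passed limma's test at an adjusted p of 0.05 over the 13648 tested probe sets, and the adjusted p was 1.0 for each. NIA1 was the 1 member of 5 with an unadjusted p under 0.05 (0.042, limma), which 2.78% of all tested probe sets reached in either direction. That p was 0.054 without an intensity trend (interval of the log2 difference -0.02 to 1.45) and 0.10 without antisense 2 (-0.14 to 1.31), both by limma. At an adjusted p of 0.05 limma called 0 probe sets (0%) between the genotypes, against 379 at an unadjusted p of 0.05 (230 with the antisense line higher, 1.69% of those tested, and 149 with it lower). The members' difference was above 0 for 2 of 5 and below 0 for 3 of 5, where 44% of all tested probe sets lay above 0. Their median log2 difference was -0.07, against -0.03 over all tested probe sets.

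NIA1 and NIA2 encode the nitrate reductases of Arabidopsis, the cytosolic molybdenum enzymes that carry out the first reduction. The NIA1 signal was 2122 on antisense 1 and 2555 on antisense 2, against 1090 on wild type 1 and 1835 on wild type 2 (scaled linear signal intensity). Both antisense arrays were above both wild-type arrays, so the groups did not overlap, and wild type 1 lay far below the other arrays. The mean signal was 2338 ± 306 on the antisense arrays and 1462 ± 527 on the wild-type arrays (SD, n = 2 each). The log2 difference was 0.72 with an SE of 0.28 and a 95% interval of 0.04 to 1.40 (limma).

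The gap between the NIA1 groups was smaller than the spread inside the wild type. The lowest antisense array exceeded the highest wild-type array 1.16-fold, whereas antisense 2 exceeded antisense 1 by 1.2-fold and wild type 2 exceeded wild type 1 by 1.68-fold. The 4 ratios between single arrays of the genotypes (antisense over wild type) ran from 1.16 to 2.34, and the ratios to wild type 1 (1.95 and 2.34) were higher than those to wild type 2 (1.16 and 1.39). Leaving out wild type 1 lowered the log2 difference to 0.34 (1.27-fold; unadjusted p = 0.29, adjusted p = 1.0 by limma), and leaving out wild type 2 raised it to 1.1. With antisense 1 left out it was 0.85 and with antisense 2 left out 0.59. Wild type 1 was also the array from the fewest plants (7), with the highest scale factor (4.54, against 4.07 to 4.34 on the others) and the highest ratio of 3' to 5' signal for the control transcript ubiquitin (4.68, against 3.16 to 3.82). This ratio rises when RNA is degraded. The same ratio for actin and GAPDH was highest on antisense 1 instead, at 5.40 and 1.72, against 4.74 and 1.66 on wild type 1. The part of any of these values in the NIA1 difference was not tested.

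The NIA2 signal was 11814 on antisense 1 and 13853 on antisense 2, against 11884 on wild type 1 and 11793 on wild type 2. Antisense 2 stood above the other 3 arrays, which lay within 1% of each other, and the groups overlapped. The mean signal was 12834 ± 1442 on the antisense arrays and 11838 ± 63.9 on the wild-type arrays (SD, n = 2 each). The log2 difference of 0.11 had an SE of 0.14 and an interval of -0.23 to 0.46, which reaches from 1.18-fold lower to 1.37-fold higher in the antisense line (limma, unadjusted p = 0.46). NIA1 thus differed by 0.61 log2 units more than NIA2 between the genotypes, and the ratio of NIA1 to NIA2 within an array was higher on both antisense arrays than on both wild-type arrays. Wild type 1 stood far apart: relative to its mean, the log2 ratio was 0.28 and 0.32 on antisense 1 and 2, -0.69 on wild type 1 and 0.08 on wild type 2. The ratios of NIA1 to NIR1, GLN2 and GLU1 separated the genotypes too. All of them share the NIA1 values, whose groups already did not overlap. Those of NIA2 to GLN2 and to GLU1 also separated the genotypes, so this was not particular to NIA1. How often ratios of other probe sets do so was not counted. No test was made of these differences between the members.

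**Figure D1:**
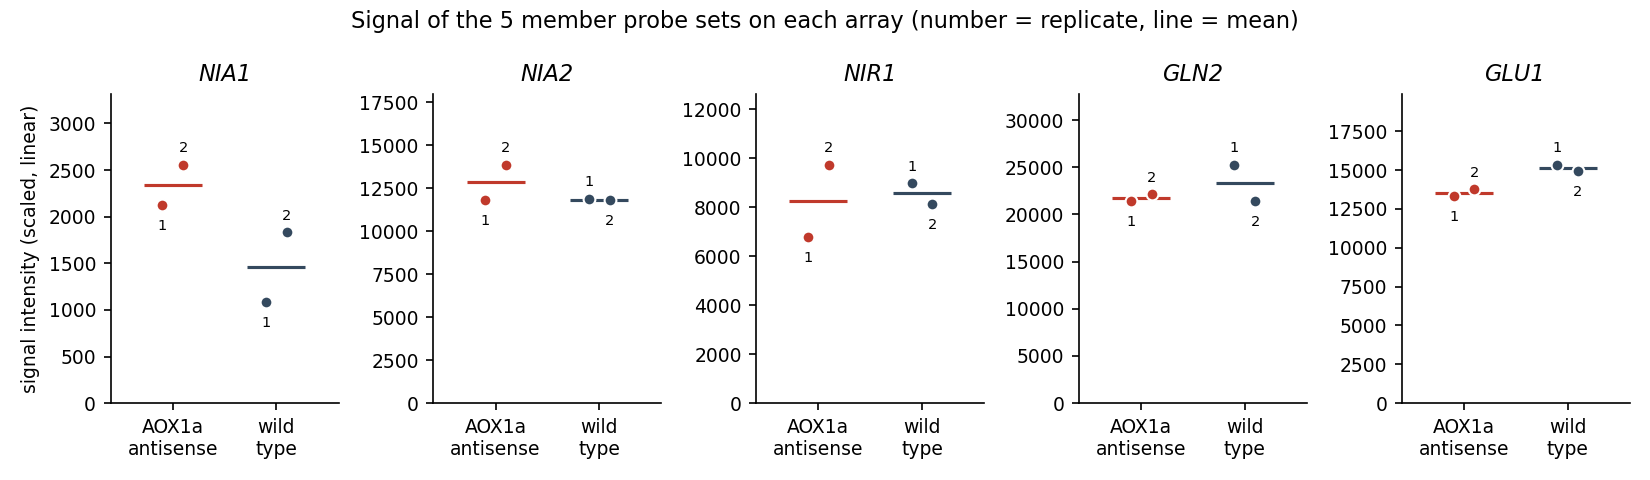
Scaled linear signal intensity (vertical axes, starting at 0 and differing between panels) of the 5 member probe sets on the 2 AOX1a antisense arrays (red) and the 2 wild-type arrays (dark blue); each point is 1 array with its replicate number and each line is the group mean. NIA1 is lowest on wild type 1 at 1090 and both antisense arrays exceed both wild-type arrays, while the points of NIA2, NIR1 and GLN2 overlap between the genotypes.

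NIR1 encodes the ferredoxin-dependent nitrite reductase of the plastid, which carries out the second reduction. Its signal was 6793 on antisense 1 and 9725 on antisense 2, against 8987 on wild type 1 and 8149 on wild type 2. The antisense arrays were the lowest and the highest of the 4 and enclosed both wild-type arrays. The mean signal was 8259 ± 2073 on the antisense arrays and 8568 ± 593 on the wild-type arrays (SD, n = 2 each). The log2 difference of -0.07 had an SE of 0.20 and an interval of -0.57 to 0.42, from 1.48-fold lower to 1.34-fold higher (limma, unadjusted p = 0.73). Without antisense 1 the log2 difference was 0.18 and without antisense 2 it was -0.33, so its direction rested on which antisense array was used.

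GLN2 encodes the plastid glutamine synthetase, the main form in green leaves. Its signal was 21382 on antisense 1 and 22136 on antisense 2, against 25250 on wild type 1 and 21391 on wild type 2. Wild type 1 stood above the other 3 arrays, and antisense 1 and wild type 2 differed by less than 0.1%. The mean signal was 21759 ± 533 on the antisense arrays and 23321 ± 2729 on the wild-type arrays (SD, n = 2 each). The log2 difference of -0.10 had an SE of 0.13 and an interval of -0.42 to 0.23, from 1.34-fold lower to 1.17-fold higher (limma, unadjusted p = 0.50). Its direction turned to 0.02 without wild type 1 and to 0.004 under quantile normalization.

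GLU1 encodes the ferredoxin-dependent glutamate synthase of the plastid. Its signal was 13333 on antisense 1 and 13766 on antisense 2, against 15332 on wild type 1 and 14972 on wild type 2. Both antisense arrays were below both wild-type arrays, and the arrays of each genotype lay close together, at 1.03-fold apart in the antisense line and 1.02-fold in the wild type. The nearest arrays of the 2 genotypes were 1.09-fold apart. In the values as deposited the GLU1 gap between the genotypes thus exceeded the spread inside each. The mean signal was 13549 ± 306 on the antisense arrays and 15152 ± 255 on the wild-type arrays (SD, n = 2 each). The log2 difference of -0.16 had an SE of 0.13 and an interval of -0.46 to 0.14 (limma, unadjusted p = 0.24), from 1.38-fold lower to 1.1-fold higher. The SE is wider than the distances between these arrays because limma combines them with the spread of other probe sets of like brightness.

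**Figure D2:**
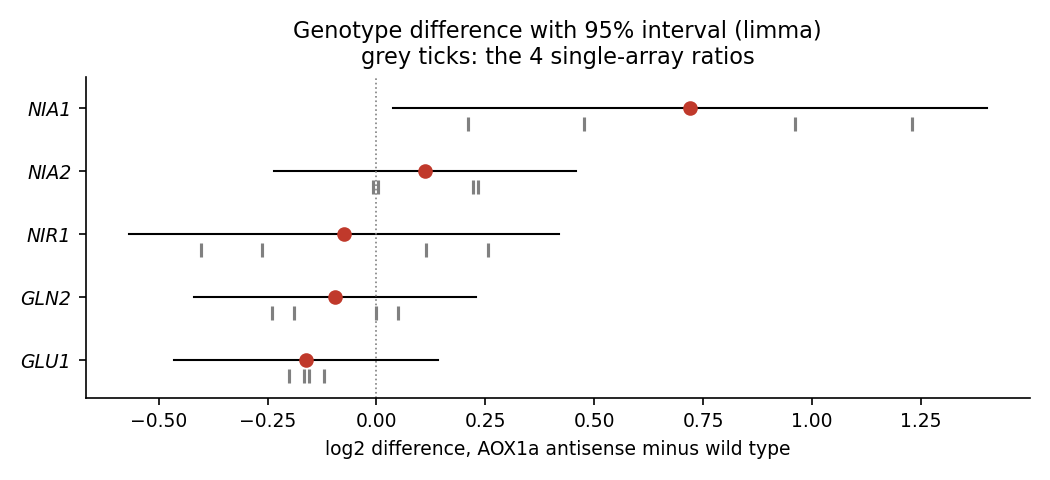
Log2 difference between the AOX1a antisense line and the wild type (horizontal axis) for the 5 members, with limma's estimate (red point) and 95% interval (black line); grey ticks are the 4 log2 ratios of a single antisense array to a single wild-type array. The interval of NIA1 runs from 0.04 to 1.40, those of the other 4 members include 0, and all 4 ticks lie above 0 for NIA1 and below 0 for GLU1.

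The groups did not overlap for NIA1 (antisense higher) and GLU1 (antisense lower), which is 2 of 5 members, or 40%, against 26.8% of all tested probe sets. In each direction this was 1 of 5 members, beside 10.7% of tested probe sets with the antisense line higher and 16.1% with it lower. A share from 5 probe sets is coarse, and nothing particular to these genes follows from it. None of the 5 was separated by at least 1.5-fold between every antisense array and every wild-type array, where 0.703% of tested probe sets were. An absolute log2 difference as large as that of NIA1 was found in 2.56% of the tested probe sets, and one as large as that of GLU1 in 42.1%. For NIA2, GLN2 and NIR1 this was 56.6%, 62.3% and 70.0%.

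**Figure D3:**
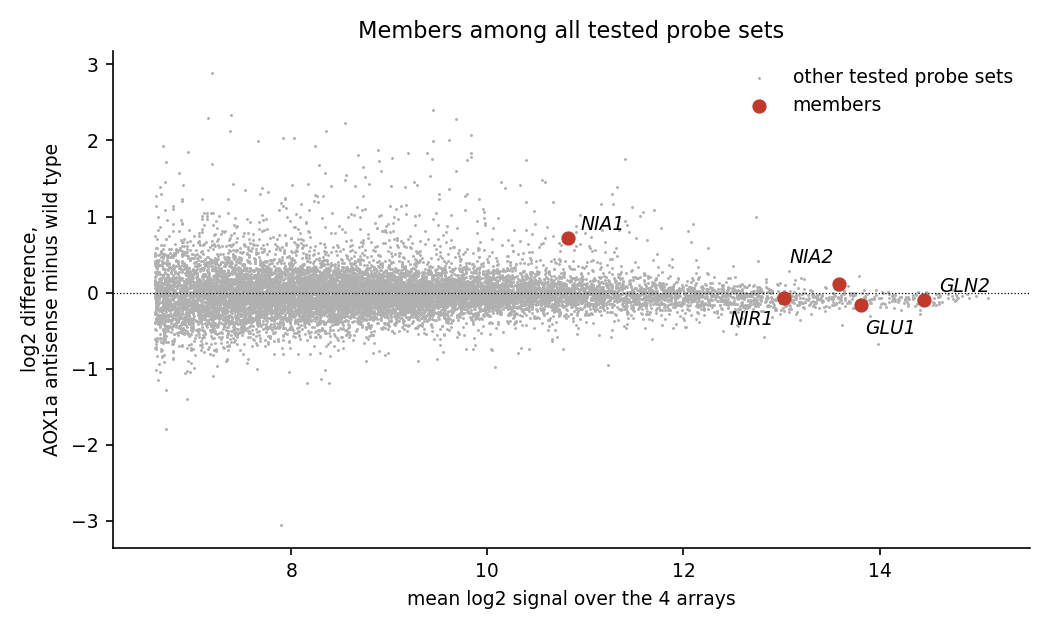
Log2 difference between the AOX1a antisense line and the wild type (vertical axis) against the mean log2 signal over the 4 arrays (horizontal axis) for the 13648 tested probe sets (grey) and the 5 members (red). NIA1 lies above the main body of points at 0.72, and the other 4 members sit among the brightest probe sets within 0.2 log2 units of 0.

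NIA2, NIR1, GLN2 and GLU1 are bright, with a signal above that of at least 98.3% of all probe sets on every array, and NIA1 exceeded 86.3% to 93.9% of them. The brightest probe sets were not level between the arrays. Over the 304 tested probe sets with a mean log2 signal of at least 13, a limit chosen after seeing the data, the median log2 signal was 13.53 on antisense 1, 13.67 on antisense 2, 13.77 on wild type 1 and 13.60 on wild type 2. Their median log2 difference between the genotypes was -0.08 and 89.5% of them were lower in the antisense line. The 4 bright members are among these 304. GLN2 followed the same order over the arrays as that median, lowest on antisense 1 and highest on wild type 1, and its log2 difference of -0.10 was close to -0.08. GLU1, at -0.16, was lower than the median. NIA2 ran the other way, and 1.97% of the 304, NIA2 included, had a log2 difference as high as its 0.11. That difference rested on antisense 2, without which it was -0.00295.

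Which members separated the genotypes changed with the scaling between arrays. After quantile normalization NIA2 read 12814 and 13842 on the antisense arrays, against 11065 and 12251 on the wild-type arrays, so that the groups no longer overlapped. Its log2 difference was then 0.19, and after cyclic loess, which also separated the groups, 0.17. The GLU1 difference shrank to -0.09 with quantile normalization and to -0.10 with cyclic loess, under which its groups overlapped. With quantile normalization GLU1 read 14014 and 13656 on the antisense arrays, against 14251 and 15133 on the wild-type arrays. The gap between the genotypes was then smaller than the spread inside the wild type. With median scaling (12930 and 14256, against 15476 and 14769) the gap was smaller than the spread inside the antisense line. NIA1 kept its groups apart as deposited, after quantile normalization, cyclic loess and median scaling, with log2 differences from 0.70 to 0.74. No member passed limma's test at an adjusted p of 0.05 under any of these scalings.

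The 4 arrays can be set 2 against 2 in 3 ways, and the members did not all follow the genotypes. NIA2, NIR1 and GLN2 as deposited were each higher on both antisense 2 and wild type 1 than on the other 2 arrays. This split, against antisense 1 and wild type 2, crosses the genotypes. It separated 3 of 5 members, or 60%, and 49.8% of all tested probe sets, counted in either direction. A share from 5 probe sets is coarse here too, and nothing particular to these genes follows from it. NIA2 was separated narrowly, with 11884 on wild type 1 and 11814 on antisense 1, and only antisense 2 stood apart. The separation of NIA2, NIR1 and GLN2 depended on the scaling: only GLN2 kept it after quantile normalization, and only NIR1 after cyclic loess. All of them kept it after median scaling. The median log2 signals of the 304 brightest tested probe sets ran the same way, at 13.67 and 13.77 against 13.53 and 13.60. The log2 difference of this crossed split was 0.33 for NIR1, 0.14 for GLN2 and 0.12 for NIA2, against genotype differences of -0.07, -0.10 and 0.11. For NIR1 the crossed difference was thus several times the genotype difference, and its antisense arrays were 1.43-fold apart. The crossed difference was -0.24 for NIA1 and 0.04 for GLU1, whose arrays overlapped in that split. No member separated the arrays numbered 2 from those numbered 1, as 23.3% of tested probe sets did, and NIA1 had the widest difference of the 5 between the numbers at 0.51. The quality sheet did separate the numbers: the background was 53.2 and 51.8 on antisense 2 and wild type 2, against 47.9 and 48.6 on antisense 1 and wild type 1, and noise and scale factor did not overlap either. These other splits are given as descriptions with no test. The crossed split also separates the arrays by plants pooled (8 and 7, against 9 and 9). Its ubiquitin ratios of 3' to 5' signal were 3.82 and 4.68, against 3.45 and 3.16. The actin ratios (4.11 and 4.74, against 5.40 and 4.15) and the GAPDH ratios (1.57 and 1.66, against 1.72 and 1.47) overlapped in that split. The part of plant number, background, brightness, scaling and these ratios in the members' values was not tested.

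**Figure D4:**
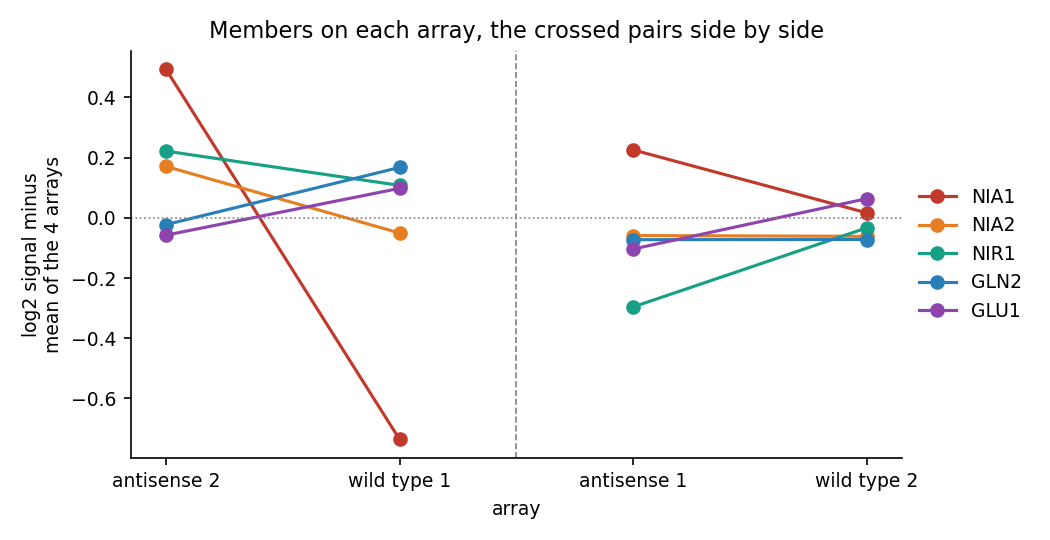
Log2 signal of each member minus its own mean over the 4 arrays (vertical axis), with antisense 2 and wild type 1 left of the dashed line and antisense 1 and wild type 2 right of it; lines join the arrays within each crossed pair. NIR1 runs from -0.30 on antisense 1 to 0.22 on antisense 2, and NIA1 has the widest range, with 0.49 on antisense 2 and -0.74 on wild type 1.

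Across all 4 arrays the highest NIA1 signal was 2.34 times the lowest, a range that 5.11% of tested probe sets reached or exceeded, where the median range was 1.38-fold. NIR1 ranged 1.43-fold, close to that median. GLN2 and NIA2 ranged 1.18-fold and 1.17-fold, and GLU1, the steadiest of the 5, ranged 1.15-fold, which 90.1% of tested probe sets reached or exceeded. The order of the members by range was therefore NIA1, NIR1, GLN2, NIA2 and GLU1, of which GLN2, NIA2 and GLU1 can hardly be told apart. The shares given are over tested probe sets of all brightness. Range was not compared among probe sets of like brightness, so steadiness particular to these genes does not follow from them. The ranks of signal given among probe sets are not read as amounts of transcript, since each probe set binds with its own strength.

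**Figure D5:**
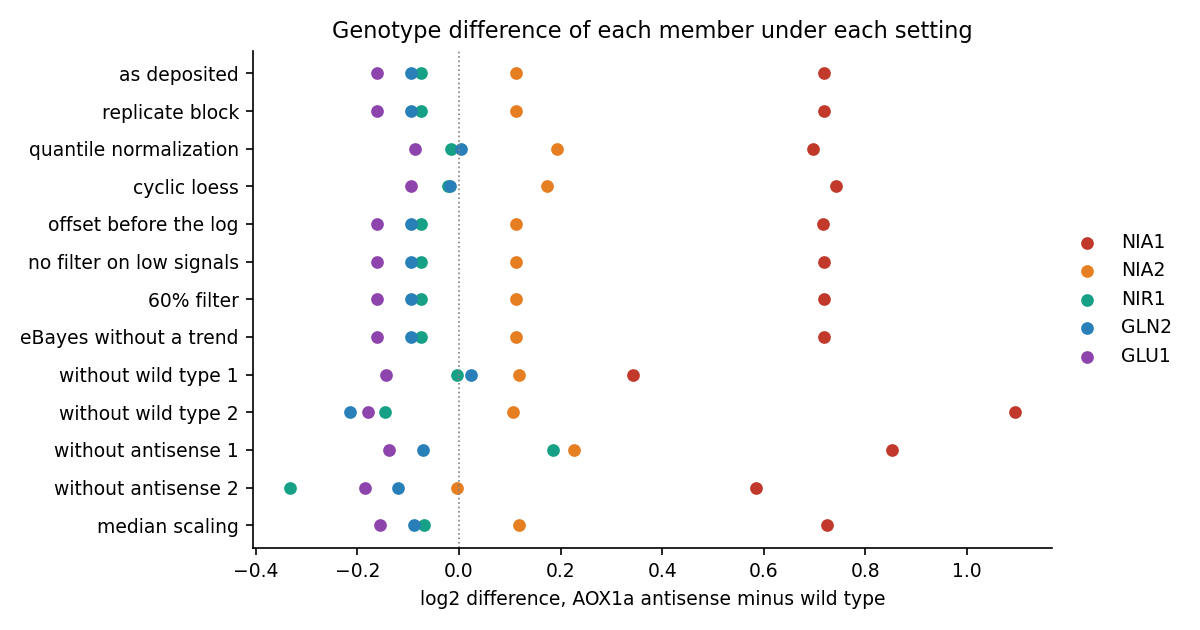
Log2 difference between the AOX1a antisense line and the wild type (horizontal axis) for the 5 members under the values as deposited and 12 other settings (rows), among them each array left out. NIA1 stays above 0 in all rows, from 0.34 without wild type 1 to 1.1 without wild type 2, GLU1 stays below 0, and NIA2, NIR1 and GLN2 cross 0 in 1, 1 and 2 rows.

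Over the 4 arrays as a whole, 55.5% to 57.3% of probe sets were called present and the background ran from 47.9 to 53.2, in the values of the deposited quality sheet. The ratio of 3' to 5' signal was 4.11 to 5.40 for actin, 3.16 to 4.68 for ubiquitin and 1.47 to 1.72 for GAPDH. The level of AOX1a, the markers of leaf tissue and the other genes of nitrogen transport and assimilation are not analysed here: the tables used do not pair their loci with probe sets. The genotype labels and the labelled tissue could therefore not be checked against those transcripts. In leaf RNA, fewer cells of a type and less transcript per cell cannot be told apart.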

How the data were processed

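Per the labels' descriptions, the authors extracted leaf RNA, pooled it over plants, hybridised labelled cRNA to ATH1 arrays and used Affymetrix MicroArray Suite 5.0 to obtain signals. The deposited values are the authors' linear intensities. They had been brought to a common level already, with a mean of 500.05 on every array once the outer 2% at each end were trimmed, and were not scaled again. Such scaling hides any shift of all transcripts together. No detection calls were used. The deposited quality sheet gave other values per array: noise, scale factor, background and the percent of probe sets called present.

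The values were log2-transformed. The 64 control probe sets were left out, as were the 40% of the other 22746 with the lowest mean log2 value. All 5 members passed, and 13648 probe sets were tested with limma 3.58.1 in R 4.3.3 (eBayes with an intensity trend, 2 residual degrees of freedom) and Benjamini-Hochberg adjustment. The fit was run on simulated data with known changes and independent errors on each array. Those data hold no split of the arrays shared by many probe sets, and no result here rests on them. With 2 against 2 arrays a two-sided exact permutation test cannot go below 0.333, so none is given. Precision is limited by the number of arrays: the median 95% interval reached 0.55 log2 units to either side. The variance behind each p-value came only in part from how far the 2 pools of a genotype lay apart. The other part came from probe sets of like brightness, with a median of 4.249 degrees of freedom beside the 2 residual ones. The rule for the members uses no measured value, but the members, and the pathway lists that could not be computed, were chosen with earlier results of these data known. Every member is named, and the probe sets with the closest pattern were taken by Euclidean distance between mean-centred log2 values. The alternatives were the number as a block, other scalings, an offset, other filters, no trend and each array left out. Median scaling and a crossed pairing were added after seeing the data. Genome coordinates and sequences were not used here.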

Additional observations from a re-analysis of the deposited data

How the results depend on the processing

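NIA1 and GLU1 did not change direction under the 12 alternatives, and no member passed limma's adjusted p of 0.05 under any of them. Of 60 member values under alternatives, 4 changed sign: NIA2 to -0.00295 without antisense 2, NIR1 to 0.18 without antisense 1, and GLN2 to 0.00378 with quantile normalization and to 0.0244 without wild type 1. Leaving out 1 array moved the log2 difference of NIA1 between 0.34 and 1.1, NIA2 between -0.00295 and 0.23, NIR1 between -0.33 and 0.18, GLN2 between -0.21 and 0.0244 and GLU1 between -0.18 and -0.14, where a lone array is assumed to vary like the others. The replicate block, the other filters and the fit without a trend cannot move a log2 difference in this balanced design, so 20 of the 60 values (4 settings) were fixed by construction. For NIA1 and GLU1, whose groups did not overlap, leaving out 1 array or adding the offset could not change the direction either. A kept direction in all those settings follows from the values and supports nothing. Only quantile normalization, cyclic loess and median scaling could have reversed it.

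Across the 13648 probe sets the 0 calls became 1 with quantile normalization, cyclic loess or median scaling, 2 with the offset of 8.1 before the log, and 0 to 5 with 1 array left out (5 without antisense 2); no member was among them, and the cause was not tested. With the replicate number as a block limma called 0, with the members' log2 differences fixed by construction (0.72 for NIA1, 0.11 for NIA2, -0.07 for NIR1, -0.10 for GLN2 and -0.16 for GLU1). Nothing in the labels ties equal numbers together, although background, noise and scale factor separated the numbers, and the same-numbered arrays deviated oppositely, with a correlation of -0.42 across probe sets. Pairing antisense 2 with wild type 1 instead called 44 (42 with the antisense line higher and 2 with it lower). The members were not read from this pairing, so whether any is among the 44 is not given. This pairing was added after seeing the data, and no label ties these arrays. It follows the split along which 49.8% of tested probe sets separated the arrays. A block chosen in this way takes that variation out of the spread, so no genotype difference is read from the 44. No alternative was run for the pathway lists, which could not be computed. The precision of every member is limited by having 2 arrays per genotype.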

Other observations

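The tested probe sets whose pattern over the 4 arrays lay closest to the members' mean centred log2 profile were 258721_at and 260695_at, at Euclidean distances of 0.009 and 0.021 log2 units among 13643 compared. Probe set 258721_at read 437.0 and 508.5 on antisense 1 and 2, against 432.4 and 448.5 on wild type 1 and 2. The members' mean profile was -0.06 and 0.16 on the antisense arrays and -0.08 and -0.02 on the wild-type arrays, so that it was highest on antisense 2. Not all members shared this profile. GLN2 and GLU1 were highest on wild type 1 (0.17 and 0.10) and below 0 on antisense 2 (-0.02 and -0.06). On wild type 1 NIA1 lay at -0.74, NIA2 at -0.05 and NIR1 at 0.11, so the mean there was set mainly by NIA1. With 4 arrays many probe sets lie this close to the mean profile: 191 were within 0.1 log2 units. No table used here names their genes.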
